A study of Saccharomyces cerevisiae with 3 samples.

Results

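The genes described here build the replication machinery of budding yeast and supply it with deoxynucleotides. They are 55 genes chosen by function, of which 51 carried spots with their name on the arrays, out of 4069 named genes in all. They encode the origin recognition complex, the factors that load and activate the replicative helicase, the DNA polymerases with their clamp and clamp loaders, replication protein A (RPA), the enzymes that finish lagging-strand fragments, topoisomerases, ribonucleotide reductase and 2 enzymes of thymidine nucleotide synthesis. No spot was named SLD5, PSF1, PSF2 or PSF3, the subunits of the GINS complex, so these 4 were not analysed here. Each of the 51 genes had 7 spots, which were averaged on each array, and 5 of the 51 were listed under an older name (MCM5 as CDC46, MCM7 as CDC47, MCM10 as DNA43, POL3 as CDC2 and POL31 as HYS2).

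Here 3 independent cultures, replicates 1 to 3, of the haploid laboratory strain BY4741 were grown to mid-log phase in rich medium (YPD) at a constant temperature, and RNA from cells held for 15 minutes in 0.4 M NaCl was compared with RNA from unstressed cells. Each culture gave 1 two-colour array, with unstressed RNA in Cy5 and stressed RNA in Cy3 on all 3 arrays. The dyes were not exchanged, so a dye effect particular to a gene cannot be told apart from an effect of NaCl in any result below. Values are log2 ratios of stressed over unstressed cells, negative where the transcript was lower upon osmostress. The deposited ratios have a median near 0 on each array (-0.001, -0.013 and -0.023 over named genes), so that a shift common to every transcript is not visible. All 7 osmostress genes used to check the direction rose, with mean log2 ratios between 4.18 for the glycerol synthesis gene GPD1 and 8.04 for STL1. HIS3 (in part), LEU2, MET17 and URA3 are deleted in this strain and served as a guide to background. These 4 genes stayed within 0.21 of 0 on every array. Over genes, Pearson's correlation with replicate 1 was 0.931 for replicate 2 and 0.890 for replicate 3, which correlated with each other at 0.971. RNA came from whole cultures, so fewer cells in S phase and less RNA per cell cannot be told apart.

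Replication is prepared in G1, when the origin recognition complex and Cdc6 load rings of MCM proteins onto origin DNA. At the start of S phase, cyclin-dependent kinase and the Cdc7-Dbf4 kinase turn these rings into active helicases with the help of Sld2, Sld3, Dpb11, Mcm10, Cdc45 and GINS. Polymerase alpha-primase then lays down primers, polymerases epsilon and delta extend them, and ribonucleotide reductase, which converts ribonucleotides into deoxyribonucleotides, sets the supply of precursors. Many of these genes are transcribed periodically in the yeast cell cycle.

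Upon osmostress, transcripts of the replication machinery were more often lower than higher. Decreases were called for 23 of the 51 genes (45.1%) and increases for 3 (5.88%), while 25 did not pass the test, a moderated limma test of the 3 ratios called at a Benjamini-Hochberg adjusted p under 0.05, over 4069 genes. Of all named genes, 27.9% fell and 26.9% rose. The median log2 ratio was -0.30 for the 51 genes and -0.006 for all named genes, and on the single arrays the median of the 51 was -0.18, -0.32 and -0.30. A ratio below 0 on all 3 arrays was found for 28 of the 51 genes, against 37.3% of all named genes, a ratio above 0 on all 3 for 3 of them, against 35.3%, and ratios of both signs for 20 of them, against 27.4%. Under a stricter adjusted p of 0.01, 17 of the 51 genes fell (19.0% of all named genes) and 3 rose (19.9%). Decreases of at least 0.58 on the log2 scale (1.5-fold) past the threshold were found for 10 of the 51 genes (12.5% of all named genes), and 2 of these, RNR1 and MCM7, fell more than 2-fold. RNR3 was the 1 gene that rose by as much (14.1% of all named genes). The genes were chosen by function with earlier results of these arrays known, so these shares are a description with no test of the list. Every gene called lay at least 0.30 from 0, beyond the range of the deleted genes, which are only a guide to background. That range does not set the called genes apart, since 33 of the 51 genes had a mean beyond it, some of them not called.

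**Figure D1:**
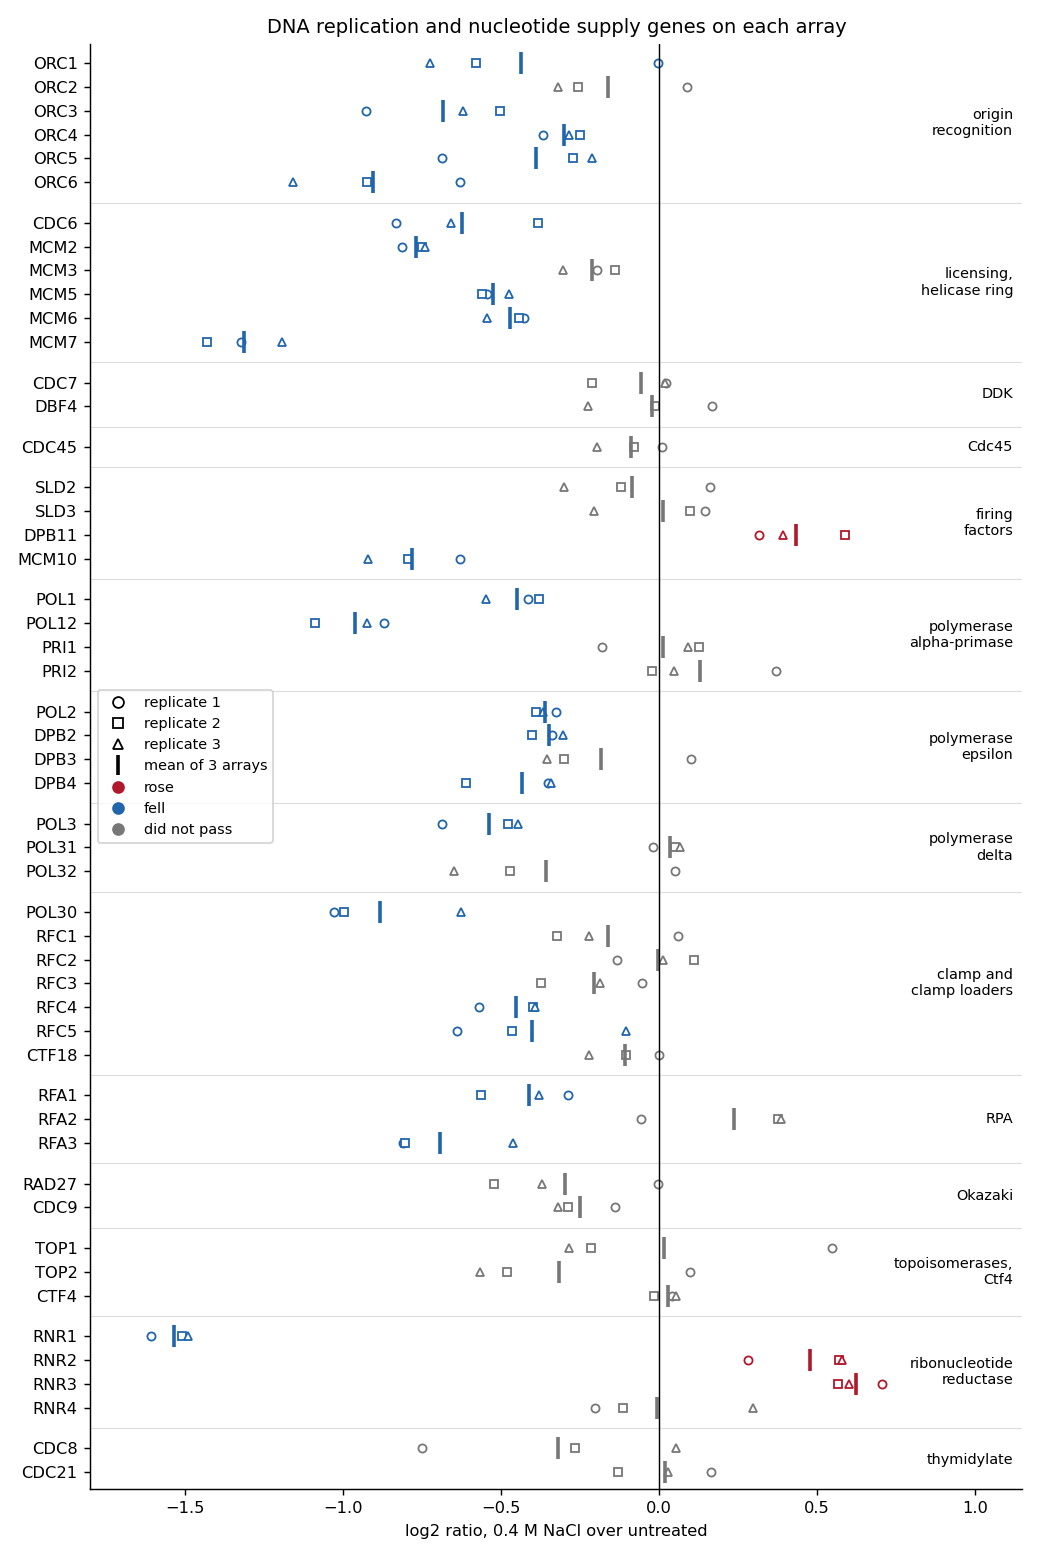
Log2 ratio (x axis, 0.4 M NaCl over untreated) of each of the 51 genes (y axis, grouped by role), with 1 symbol for each of the 3 arrays, a vertical tick at their mean and colour for the limma call at an adjusted p of 0.05. RNR1 and MCM7 lay furthest to the left at -1.54 and -1.32, DPB11, RNR2 and RNR3 were the 3 genes that rose, and replicate 1 (circles) lay apart from the other arrays for genes such as TOP1 and ORC1.

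**Figure D2:**
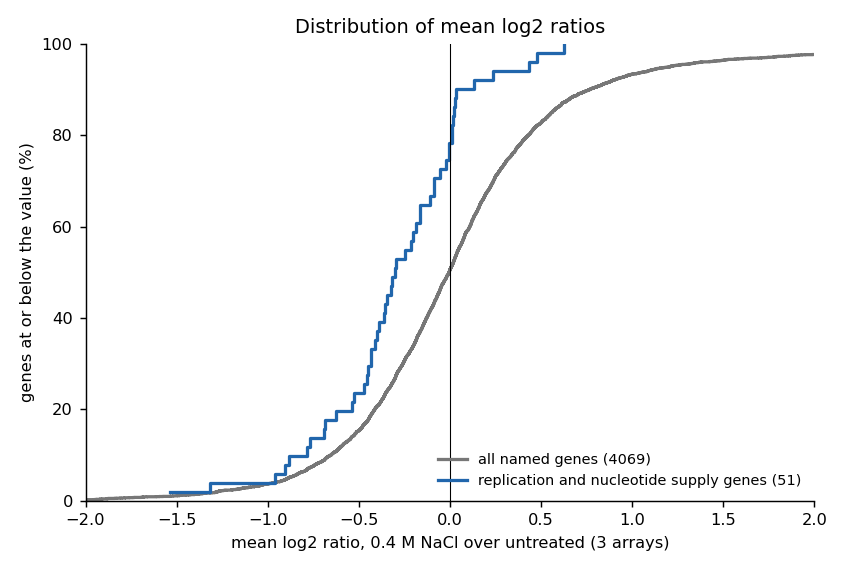
Share of genes (y axis, %) with a mean log2 ratio over 3 arrays at or below the value on the x axis, for the 51 replication and nucleotide supply genes and for all 4069 named genes. The x axis ends at -2 and 2, and the curve of the 51 genes rises earlier, crossing the middle near -0.30 where that of all genes crosses near 0.

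Ribonucleotide reductase showed the widest split among the groups. The enzyme joins a large subunit, encoded by RNR1 and by its paralogue RNR3, to a small subunit made of Rnr2 and Rnr4. RNR1, which encodes the main large subunit, stood at -1.61, -1.51 and -1.49 on the 3 arrays. This was the lowest mean of all 51 genes and 2.90-fold lower than in unstressed cells (-1.54 ± 0.06 on the log2 scale, SD, n = 3, limma adjusted p = 5.40e-06). RNR3, whose product is the minor large subunit best known for its induction by DNA damage, stood at 0.71, 0.57 and 0.60. It rose 1.54-fold (0.62 ± 0.07, adjusted p = 0.000803 from limma), the largest increase among the 51 genes. RNR1 minus RNR3 was -2.31, -2.08 and -2.09 on the 3 arrays, or -2.16 ± 0.13. Cross-hybridization between paralogues was not tested. Distances between genes are given with their spread over the arrays and were not fitted with limma. An exact sign-flip test of 3 such values could not go below a two-sided p of 0.25.

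Of the small subunit genes, RNR2 rose and RNR4 did not pass. RNR2 stood at 0.28, 0.57 and 0.58 and rose 1.39-fold (0.48 ± 0.17, SD, n = 3, adjusted p = 0.00518 from limma), but missed the threshold in the fit without replicate 2 (adjusted p = 0.0629). RNR4, whose product pairs with Rnr2, stood at -0.20, -0.11 and 0.30. Its arrays disagreed in sign, and its mean of -0.006 did not pass, with a 95% interval from -0.28 to 0.27. RNR2 lay above RNR4 on each array, by 0.48, 0.68 and 0.28.

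Neither gene of thymidine nucleotide synthesis passed the test. CDC21, which encodes thymidylate synthase, stood at 0.16, -0.13 and 0.03. CDC8, which encodes thymidylate kinase, spread from -0.75 on replicate 1 over -0.27 to 0.05 on replicate 3. Its mean of -0.32 did not pass (adjusted p = 0.101 from limma), and it fell without replicate 3 (adjusted p = 0.00200).

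Further genes of this supply line were described from a list of 15 genes chosen for their function, 14 of them with named spots, of which 2 rose, 3 fell and 9 did not pass. Both shares were below those of all named genes (26.9% rose and 27.9% fell). Without replicate 1, 5 of the 14 rose, beside 1282 of all 4069 named genes. Without replicate 2, 1 rose, beside 777 of all named genes. The gene with the largest change was RFX1, also known as CRT1, which encodes a DNA-binding repressor known to act on RNR2, RNR3, RNR4 and HUG1. RFX1 stood at 1.45, 1.37 and 1.28 and rose 2.57-fold (1.36 ± 0.08, SD, n = 3, adjusted p = 1.22e-05 from limma). Its ratio was thus positive beside increases of RNR2 and RNR3. HUG1, another known target of the repressor, had values of -0.03, -0.20 and 0.05 and did not pass. From the checkpoint list below, DUN1, which encodes the checkpoint kinase that acts on the Rfx1 protein and on the reductase inhibitor Sml1, rose by 0.41 ± 0.08, but missed the threshold in the fit without replicate 2 (adjusted p = 0.0540). SML1 itself ranged from 0.02 on replicate 1 to -0.90 on replicate 3 and did not pass (adjusted p = 0.0528 from limma).

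Among the enzymes around the reductase, DCD1, which encodes deoxycytidylate deaminase, fell 1.81-fold (-0.86 ± 0.11, SD, n = 3, adjusted p = 0.000173 from limma), and DUT1, the dUTPase gene, fell by 0.48. GUK1, which encodes guanylate kinase, fell by 0.49, with replicate 3 at -0.09 against -0.78 and -0.59, and it missed the threshold in the fits without replicate 1 (adjusted p = 0.0533) and without replicate 2 (0.0603). YNK1, the nucleoside diphosphate kinase gene, rose by 0.45 with values from 0.14 to 0.67, but missed the threshold in the fit without replicate 2 (adjusted p = 0.0844).

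**Figure D3:**
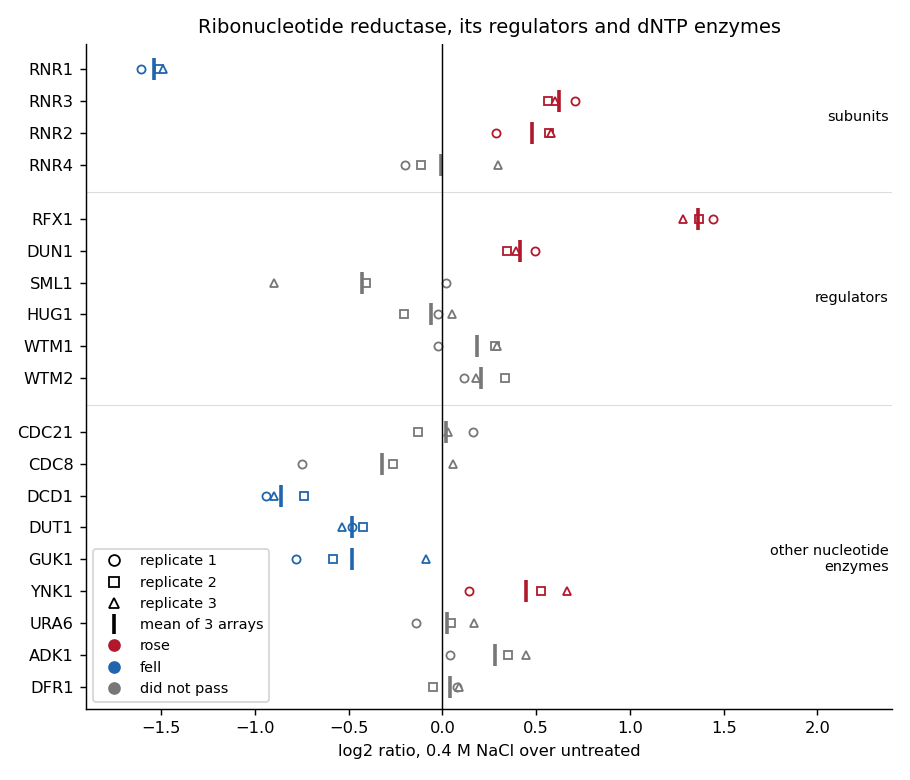
Log2 ratio on each of the 3 arrays (x axis, 0.4 M NaCl over untreated, 1 symbol per array, tick at the mean, colour for the limma call) of the 4 ribonucleotide reductase genes, 6 genes of its regulators and 9 genes of other nucleotide enzymes (y axis). RNR1 at -1.54 and RFX1 at 1.36 lie at opposite ends, with the 3 arrays of each close together.

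Most genes of the origin recognition complex and of helicase loading fell. Of the 6 subunits of the origin recognition complex, 5 fell and 1 did not pass. ORC6, whose product helps bind Cdt1 during MCM loading, stood at -0.63, -0.93 and -1.16 and fell 1.87-fold (-0.90 ± 0.27, SD, n = 3, adjusted p = 0.000423 from limma). ORC3 stood at -0.93, -0.51 and -0.62 and fell by 0.68. The other 3 calls in this complex did not hold without each replicate in turn. ORC1, which encodes an ATPase subunit, stood at -0.003 on replicate 1 against -0.58 and -0.73, and it missed the threshold in the fits without replicate 2 (adjusted p = 0.125) and without replicate 3 (0.0921). ORC4 (-0.30) lost its call in the same settings (0.177 and 0.0724), and ORC5 (-0.39) without replicate 2 (0.0510). ORC2 had the highest mean of the complex, -0.16, with replicate 1 above 0 and the other arrays below. It did not pass (adjusted p = 0.241), but fell without replicate 1 (0.0177).

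CDC6, which encodes the ATPase that acts with the origin recognition complex, stood at -0.83, -0.38 and -0.66 and fell by 0.62. Of the 5 MCM ring genes measured here, MCM2, MCM5, MCM6 and MCM7 fell and MCM3 did not pass. The remaining ring gene, MCM4, was not among the genes chosen. MCM7 stood at -1.32, -1.43 and -1.19 and fell 2.49-fold (-1.32 ± 0.12, SD, n = 3, adjusted p = 1.75e-05 from limma). MCM2 was nearly the same on each array, at -0.81, -0.75 and -0.74. MCM5 and MCM6 had means of -0.53 and -0.47. MCM3 stood at -0.20, -0.14 and -0.30, below 0 on every array with a mean of -0.21 that did not pass (adjusted p = 0.0861). The ring proteins act in equal numbers, while the 5 transcripts described here spanned 1.10 on the log2 scale, and MCM7 minus MCM3 was -1.10 ± 0.20 over the 3 arrays. The calls of CDC6 and of these 4 ring genes held without each replicate in turn.

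The genes that act at the switch from a loaded to an active helicase were mostly near 0. CDC7 and DBF4, which encode the kinase and its activating subunit, had means of -0.06 and -0.02 and did not pass, with 95% intervals from -0.28 to 0.17 and from -0.27 to 0.22. CDC45 (-0.09), SLD2 (-0.09) and SLD3 (0.01) did not pass either. SLD2 stood at 0.16, -0.12 and -0.30, and SLD3 at 0.15, 0.10 and -0.21, so that replicates 1 and 3 lay on opposite sides of 0 for both. CDC7, DBF4, SLD2 and SLD3 each had at least 1 array on either side of 0. CDC45 did so through 1 spot far from the others, and the medians of its 7 spots lay below 0 on every array. SLD3 also had spots far from the others, with 1 spot at 0.89 and 0.65 on replicates 1 and 2. The median of its spots gave a mean of -0.09.

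The other 2 genes at this step moved in opposite directions. DPB11, which encodes the scaffold that binds phosphorylated Sld2 and Sld3, stood at 0.32, 0.59 and 0.39 and rose 1.35-fold (0.43 ± 0.14, SD, n = 3, adjusted p = 0.00683 from limma), but missed the threshold in the fit without replicate 2 (adjusted p = 0.137). MCM10, needed to activate the assembled helicase, stood at -0.63, -0.80 and -0.92 and fell by 0.78 (adjusted p = 0.000359). Its spots disagreed more than those of any other of the 51 genes. Of its 7 spots, 1 read 0.55, -0.16 and 0.79 on the 3 arrays and another -0.54, -0.24 and -1.10, while the other 5 lay between -0.76 and -1.32. With the median of spots in place of the mean, MCM10 stood at -1.03.

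Spots far from the others touched few genes. Of 1071 spot values of the 51 genes, 15 lay over 0.5 from the median of the same gene and array, and they belonged to 9 genes. For CDC45, 1 spot read 1.19 and 0.81 on replicates 1 and 2 while the median of its spots gave a mean of -0.17, and for RFC2, 1 spot read 1.47 on replicate 2. With the median of spots, the counts of genes that rose and fell were the same, 3 and 23.

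**Figure D4:**
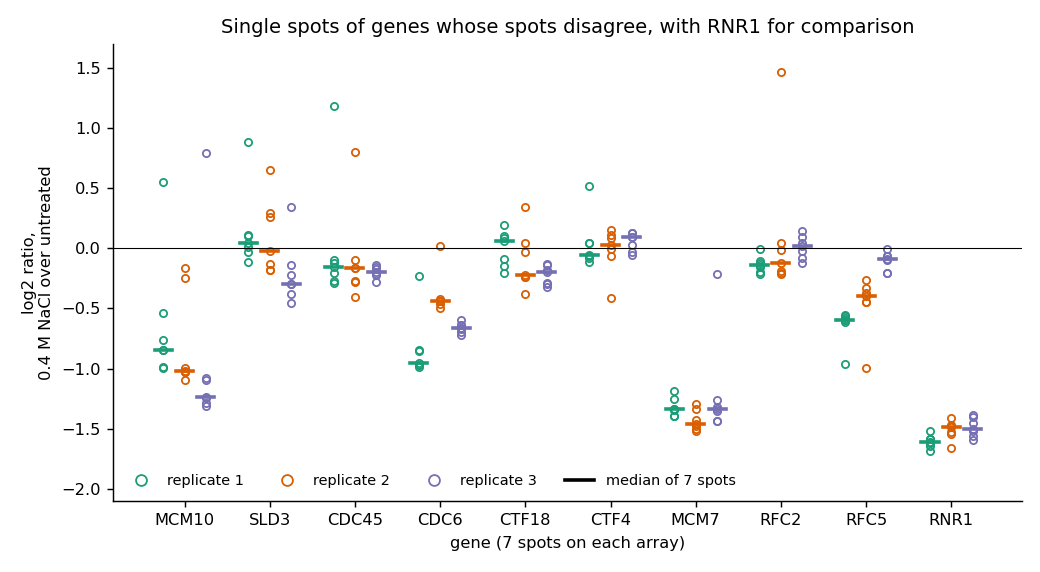
Log2 ratio (y axis, 0.4 M NaCl over untreated) of each single spot on each of the 3 arrays (open circles, colour for the array; bars are medians of 7 spots) for the 9 genes with a spot over 0.5 from the median, and for RNR1. Single spots stand off, such as those of MCM10 at 0.55 and 0.79, while the 7 spots of RNR1 lie close together on every array.

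Within each replicative polymerase some subunits fell and others did not pass. In polymerase alpha-primase, the transcripts of both polymerase subunits fell and those of both primase subunits did not pass. POL12, which encodes the regulatory B subunit, stood at -0.87, -1.09 and -0.92 and fell 1.95-fold (-0.96 ± 0.11, SD, n = 3, adjusted p = 0.000102 from limma), and POL1, which encodes the catalytic subunit, fell by 0.45 with arrays between -0.38 and -0.55. PRI1, the catalytic primase subunit gene, had a mean of 0.01 with a 95% interval from -0.23 to 0.25. PRI2, its partner, had a mean of 0.13, which rests on replicate 1 at 0.37 beside -0.02 and 0.05. POL12 minus PRI1 was -0.69, -1.21 and -1.01, and POL12 minus PRI2 was -1.24, -1.07 and -0.97, so the arrays of these subunits did not overlap.

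In polymerase epsilon, which extends the leading strand, the subunits lay close together. POL2, the catalytic subunit gene, stood at -0.33, -0.39 and -0.37, DPB2 at -0.34, -0.40 and -0.30 and DPB4 at -0.35, -0.61 and -0.34. All 3 fell, with means of -0.36, -0.35 and -0.43, and all 3 calls were lost without replicate 2 (adjusted p = 0.148, 0.185 and 0.149). DPB3, which encodes the histone-fold partner of Dpb4, had a mean of -0.19 with replicate 1 at 0.10 and did not pass, but fell without replicate 1 (adjusted p = 0.0107).

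In polymerase delta, which extends the lagging strand, POL3, the catalytic subunit gene, stood at -0.69, -0.48 and -0.45 and fell by 0.54 (adjusted p = 0.00225). POL31 stood at -0.02, 0.05 and 0.07 and did not pass, and POL3 minus POL31 was -0.57 ± 0.08 over the 3 arrays. POL32, which encodes the smallest subunit, stood at 0.05, -0.47 and -0.65. Its mean of -0.36 was as low as that of POL2 but did not pass (adjusted p = 0.0596), and it fell without replicate 1 (0.00162).

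The sliding clamp gene fell, and of its 6 loader genes 2 fell and 4 did not pass. POL30, which encodes the clamp PCNA, stood at -1.03, -0.997 and -0.63 and fell 1.85-fold (-0.88 ± 0.22, SD, n = 3, adjusted p = 0.000332 from limma). Of the 5 subunits of the main clamp loader, RFC4 (-0.45) and RFC5 (-0.40) fell, and RFC1 (-0.16), RFC2 (-0.004) and RFC3 (-0.21) did not pass. The call of RFC5, with replicate 3 at -0.10 against -0.64 and -0.46, did not hold in the fits without replicate 1 (adjusted p = 0.0528) and without replicate 2 (0.117). RFC1 and RFC3 fell without replicate 1 (adjusted p = 0.0234 and 0.0275). CTF18, which encodes the subunit that replaces Rfc1 in an alternative loader, had a mean of -0.11 and did not pass. RFC4 had the lowest mean of the loader genes. POL30 lay below RFC4 on each array, and POL30 minus RFC4 was -0.43 ± 0.18.

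The subunits of RPA, which coats single-stranded DNA as a trimer, lay on both sides of 0. RFA3, the gene of the smallest subunit, stood at -0.81, -0.80 and -0.46 and fell by 0.69 (adjusted p = 0.000997). RFA1, the gene of the large DNA-binding subunit, stood at -0.29, -0.57 and -0.38 and fell by 0.41, but missed the threshold in the fit without replicate 2 (adjusted p = 0.164). RFA2 stood at -0.06, 0.38 and 0.39 and did not pass with a mean of 0.24 (adjusted p = 0.120), but rose without replicate 1 (0.00556). RFA3 minus RFA2 was -0.93 ± 0.22 over the 3 arrays.

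Genes that finish lagging-strand fragments and relieve supercoils did not pass the test, although several lay below 0. RAD27, which encodes the flap endonuclease, stood at -0.004, -0.52 and -0.37 (mean -0.30, adjusted p = 0.0638). CDC9, the DNA ligase gene, stood at -0.14, -0.29 and -0.32 (mean -0.25, adjusted p = 0.0538). Both fell without replicate 1 (adjusted p = 0.00389 and 0.0141). TOP2, which encodes topoisomerase II, stood at 0.10, -0.48 and -0.57 (mean -0.32, adjusted p = 0.0855) and fell without replicate 1 (0.00158). TOP1, which encodes topoisomerase I, had the widest spread of the 51 genes, at 0.55, -0.22 and -0.28. Its mean was 0.02, and without replicate 1 it was -0.25 and passed the test (adjusted p = 0.0301). CTF4, which encodes the adaptor between helicase and polymerase alpha, stood at 0.04, -0.01 and 0.05 and did not pass.

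The arrays thus disagreed on a subset of genes. Replicate 1 lay over 0.3 above both other arrays for 8 of the 51 genes (ORC1, ORC2, PRI2, DPB3, POL32, RAD27, TOP1 and TOP2) and over 0.3 below both for 4 (ORC3, ORC5, RFA2 and CDC8), while replicates 2 and 3 lay within 0.3 of each other for 45. The same counts over all named genes are not given here. Over those genes, replicate 1 also correlated less with the other arrays than these did with each other. What sets replicate 1 apart was not tested. Without replicate 1, 31 of the 51 genes fell and 4 rose, and without replicate 2, 15 fell and 1 rose. The counts over all 4069 named genes moved the same way. Of these, 1340 fell and 1282 rose without replicate 1, and 695 fell and 777 rose without replicate 2. The 16 calls that held without each replicate in turn were those of RNR1, RNR3, MCM2, MCM5, MCM6, MCM7, MCM10, CDC6, ORC3, ORC6, POL1, POL12, POL3, POL30, RFC4 and RFA3. The matching count over all named genes is not given here, so these 16 calls have no background share beside them. In the fits without replicate 2 or 3, the adjusted p followed the size of the mean, whatever the spread. Without replicate 2, limma gave 0.148 for POL2 (-0.33 and -0.37) and 0.145 for CDC8 (-0.75 and 0.05). Calls held or lost in those fits thus reflect the size of a change and not how well the arrays agreed. The 95% intervals of the 25 genes that did not pass reached from -0.68 for POL32 to 0.50 for RFA2 at their widest.

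Regulators of the G1/S transition were described from a list of 11 genes, of which 10 had named spots, and 5 of these fell, 3 rose and the other 2 missed the threshold (all named genes: 27.9% fell and 26.9% rose, also for the next lists). All 3 subunits of the transcription factors that drive G1/S genes fell, with SWI6 at -0.59, MBP1 at -0.46 and SWI4 at -0.39. The calls of MBP1 and SWI4 were lost without replicate 2 (adjusted p = 0.161 and 0.0975), and that of SWI4 also without replicate 3 (0.0870). The S phase cyclin genes CLB5 and CLB6 fell by 0.93 ± 0.03 and 1.03 ± 0.05 (SD, n = 3), with hardly any spread between arrays. The cyclin-dependent kinase gene CDC28 rose by 0.89, and SIC1, the gene of the inhibitor that holds S phase kinase back in G1, rose by 0.66 with arrays from 0.31 to 1.10. WHI5, which encodes a repressor of G1/S transcription, rose by 0.31, but missed the threshold in the fits without replicate 1 (adjusted p = 0.0827) and without replicate 2 (0.301).

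Among 13 S phase checkpoint genes were 6 that fell and 3 that rose. TOF1, which encodes a subunit of the fork protection complex, fell 1.74-fold (-0.80 ± 0.09, SD, n = 3, adjusted p = 0.000237 from limma), while its direct partner CSM3 rose by 0.25, but missed the threshold in the fits without replicate 2 (adjusted p = 0.305) and without replicate 3 (0.153). RAD9, the gene of a checkpoint adaptor, fell by 0.75. RAD53, which encodes the central checkpoint kinase, had a mean of -0.14 and did not pass. Of these 9 calls, those of TOF1 and RAD9 held without each replicate in turn, and without replicate 2 the other 7 missed the threshold.

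Of 12 further genes for loading, fork and fragment processing factors, 5 fell, 3 rose and 4 did not pass. RMI1 stood at 1.11, 1.46 and 1.45 and rose 2.53-fold (1.34 ± 0.20, SD, n = 3, adjusted p = 2.82e-05 from limma). Its product acts in a complex with Top3 and Sgs1, and TOP3 fell by 0.58 while SGS1 did not pass with a mean of 0.07. RRM3, which encodes a helicase that helps forks through protein barriers, rose 2.09-fold. ELG1, whose product unloads PCNA, fell by 0.72 beside the decrease of POL30. Without replicate 2, 2 of the 12 fell, ELG1 and TOP3, beside 695 of all 4069 named genes. Each of these 3 lists held calls in both directions, and their medians of -0.10, -0.17 and -0.13 lay closer to 0 than the -0.30 of the 51 genes, a difference that was not tested. Cohesin and its loader, described further below, had a median of -0.26, near that of the 51 genes. The medians were -0.08 for translesion synthesis, 0.003 for the nucleotide supply list above and 0.21 for chromatin assembly.

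**Figure D5:**
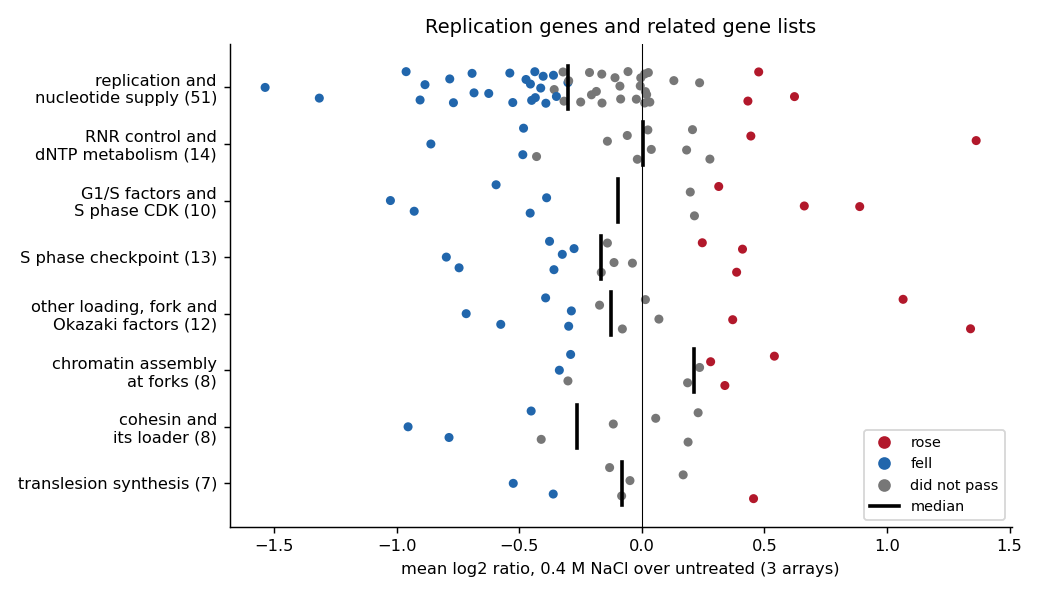
Mean log2 ratio over 3 arrays (x axis, 0.4 M NaCl over untreated) of each gene in the replication and nucleotide supply genes and in 7 related lists (y axis, number of measured genes in brackets), with colour for the limma call and a black bar at the median. The 51 genes have their median at -0.30 and few points on the right, while the lists below them hold genes that rose and genes that fell, except cohesin, whose 3 calls were all decreases.

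For 23 of the 51 genes the upstream neighbour in the R64 gene table is transcribed away from them and has named spots, so that both start from 1 intergenic region. Of the 11 of these genes that fell, 3 had a neighbour that fell, 2 a neighbour that rose and 6 a neighbour that did not pass, shares close to or below the 27.9% and 26.9% of all named genes that fell and rose. CDC6 fell by 0.62 while its neighbour ELO1, which encodes a fatty acid elongase, rose by 0.98, and DPB4 fell by 0.43 beside TRM1, a tRNA methyltransferase gene, which fell by 0.98. CDC9 did not pass at -0.25, and its neighbour ENT1 rose by 0.83. These neighbours were named after their values were seen.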

How the data were processed

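The authors normalized each two-colour array and deposited 1 log2 ratio per spot. Of tools, the processing notes of the submitters list limma. The version, the correction for background, the kind of normalization and any spot filter were not given in the sources used here. Neither the log base nor the direction is stated. They were taken as log2 and as stressed over untreated because the 385 named genes of the study's osmoresponsive table (fold over 1.75) were positive throughout, with a lowest mean of 0.72 beside 0.81, the log2 of 1.75. The study drew that osmoresponsive table from its own microarray data, so it is no independent source. Spots were named through the platform's annotation (28532 of 45220), with symbols updated through the R64 gene table. Per array, a gene's value is the mean of its spots.

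limma (version 3.58.1, R 4.3.3) fitted an intercept to the 3 ratios of each gene, with empirical Bayes moderation. Two-sided p-values were adjusted over 4069 genes (Benjamini-Hochberg) and called at 0.05. A gene past it is said to have risen or fallen. The array is the block, since both channels lie on it. The fit of 3 arrays was also run on simulated independent noise, with known changes in a small part of the genes. Its outcome is not given here, and it is no check of the calls or of the fits without 1 replicate. Named genes are the reductase and thymidylate genes, the extremes of each role, changes of at least 0.58, calls against the majority or lost without a replicate, and the 3 largest calls of each related list; others are named to account for them. The genes, lists and tests were chosen with earlier results of these data known. Alternatives were centring, scaling, the median of spots, leaving out replicates or genes spanning over 1, robust moderation and a threshold of 0.01. The number of arrays limits the precision, and spot intensities were not analysed here. Python 3.11.15 made counts and figures.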

Additional observations from a re-analysis of the deposited data

How the results depend on the processing

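The counts of 3 genes that rose and 23 that fell were the same after centring the arrays, after scaling them, with the median of spots, with robust moderation and without genes spanning over 1 on the log2 scale. At an adjusted p under 0.01, 3 rose and 17 fell. Leaving out each replicate in turn gave 1 to 4 genes that rose and 15 to 31 that fell, with both lowest counts without replicate 2, and a median from -0.29 to -0.21. Over all named genes, 777 to 1282 rose and 695 to 1340 fell, also with both lowest counts without replicate 2. A change of sign was seen for 9 genes that did not pass. Without each replicate in turn CDC7 ranged from -0.095 to 0.021, DBF4 from -0.118 to 0.078, SLD2 from -0.210 to 0.021, SLD3 from -0.054 to 0.121, PRI1 from -0.045 to 0.108, RFC2 from -0.061 to 0.062, TOP1 from -0.250 to 0.166, RNR4 from -0.158 to 0.091 and CDC21 from -0.051 to 0.096. With the median of spots SLD3 was -0.091 and TOP1 -0.001, with centred arrays RFC2 was 0.009 and RNR4 0.006, and with scaled arrays they were 0.009 and 0.007. The cause was not tested. Every fit was paired, since each array holds both conditions of 1 culture, and no further replicate block could be added. A grouping by promoter motifs was not run, since promoter sequences were not used here.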

Other observations

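Genes that act behind the replication fork were described from 3 further lists, beside 27.9% of all named genes that fell and 26.9% that rose. Of 8 genes of chromatin assembly, 3 rose, 2 fell and 3 did not pass, with the share that fell near that of all named genes. CAC2 of chromatin assembly factor 1 rose by 0.54 ± 0.20 (SD, n = 3, adjusted p = 0.00366 from limma), while MSI1 of the same factor fell by 0.34 and RLF2 did not pass with a mean of -0.30. The 2 subunits of the histone chaperone FACT split as well, with POB3 at 0.34 and SPT16 at -0.29. ASF1, which encodes another histone chaperone, rose by 0.28, a call that held in none of the fits without 1 replicate (adjusted p from 0.0537 to 0.207). The calls of MSI1, POB3 and SPT16 were lost without replicate 2 (adjusted p = 0.111, 0.108 and 0.194), and those of POB3 and SPT16 also without replicate 1 (0.0513 and 0.0830).

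Of 8 genes of cohesin and its loader, 3 fell and 5 did not pass the limma test. SMC3 stood at -0.62, -1.17 and -1.07 and fell 1.94-fold, and SMC1, whose product pairs with Smc3, stood at 0.47, -0.10 and -0.20 and did not pass. SCC2 of the loader fell by 0.79, and its partner SCC4 did not pass with a mean of 0.23. IRR1 fell by 0.45, but missed the threshold in the fit without replicate 2 (adjusted p = 0.0831). Of 7 genes of translesion synthesis, REV3 and REV7, which both encode subunits of polymerase zeta, moved apart. REV3 had a mean of -0.52 ± 0.08 and REV7 of 0.46 ± 0.11 (SD, n = 3). Both calls held without each replicate in turn. REV1 fell by 0.36, but missed the threshold in the fits without replicate 2 (adjusted p = 0.162) and without replicate 3 (0.0631). Differences between subunits of 1 complex were not tested.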
